A study of Danio rerio with 6 samples.

Results

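G2 and mitosis genes encode the proteins that take a cell from the end of DNA replication through chromosome segregation to division. They were read here by poly(A) RNA sequencing of zebrafish heads taken at 2 days post-fertilization (dpf), with 150 heads pooled in each library. The exposed group received 500 µg/L of the tire rubber antioxidant 6PPD, starting 10 hours post-fertilization (hpf), and the control group received the solvent DMSO, with 3 libraries in each group. All embryos of both groups grew at 28 °C and received the pigment inhibitor PTU at 0.003% from 24 hpf, and neither group carried a named transgene or mutation. The sources used here do not give the strain. The labels call the replicates biological and name the tissue as brain, while the dissected part was the whole head, so RNA of eye, skin, blood and cranial muscle was measured together with that of brain.

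The members are a list of 50 gene symbols, chosen with earlier results of these data known and matched here by symbol. Of these, 48 matched a gene name in the table of 32057 genes, and the symbol ube2c matched 2 rows, which gave 49 rows. The symbols incenp and cenpa matched none. One further row, named after a clone, carries the NCBI gene number of incenp, and it is reported beside the members without being counted among them. All 49 rows passed the filter of a mean of at least 1 FPKM (fragments scaled to gene length and to the mapped fragments of the library), as did 15320 genes in all.

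Entry into mitosis is driven by the kinase Cdk1 bound to a B-type or A-type cyclin, which the phosphatases of the Cdc25 family switch on and the kinase Wee1 holds off. Chromosomes are then condensed, attached through kinetochores to the spindle, and kept together until the spindle checkpoint releases Cdc20, which directs the anaphase-promoting complex (APC/C) to destroy securin and the cyclins. Transcripts of most of these genes peak in G2 and mitosis and are scarce in cells that have left the cell cycle, so in a growing embryonic head they are known as marks of the dividing progenitor cells of brain, retina and other tissues. The roles given for single genes below are those known from vertebrate cells in general. In pooled tissue, more dividing cells and more of these transcripts per dividing cell cannot be told apart.

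G2 and mitosis genes were higher in 6PPD heads across almost the whole list. At a limma adjusted p (Benjamini-Hochberg, over all genes tested) under 0.05, 34 of the 49 rows rose and 0 fell, where 2.26% of all tested genes were called higher and 1.15% lower. Below, rose and fell are used for genes called at this threshold, and a gene not called can still lie higher in 6PPD. At an unadjusted p under 0.05, 46 rows were higher, where 13.4% of all tested genes were. At that threshold 1 row was lower, and the share of all tested genes that were lower was not counted. A positive log2 fold change was seen in 48 rows and in 61.5% of all tested genes. The median log2 fold change of the members was 0.51, against 0.06 for all tested genes, and the values ran from -0.25 for the shorter of the ube2c loci to 0.95 for cdk1. In 46 rows each 6PPD library lay above each DMSO library, as it did in 17.1% of all tested genes. In 1 row it was the reverse, which 9.18% of all tested genes showed, and in cdc20 and spc25 the groups overlapped. All log2 fold changes are differences of mean log2(FPKM + 1), 6PPD minus DMSO, given with the moderated standard error (SE), and they understate changes of low genes. The number of members called higher depended on the libraries in the fit: leaving out 6PPD replicate 3 gave 12, leaving out 6PPD replicate 1 gave 15, DMSO replicate 2 gave 16 and 6PPD replicate 2 gave 20. Of all tested genes, 346 were called higher with all 6 libraries, and 98, 86, 90 and 131 in these fits, in the same order. After median-ratio scaling of the libraries, 21 members and 234 of all tested genes were called higher. In each of the 6 fits without 1 library, 11 members kept the call, namely cdk1, cdc25b, mad2l1, cdca8, nuf2, spc24, nusap1, mki67, top2a, ncaph and the longer ube2c locus.

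**Figure D1:**
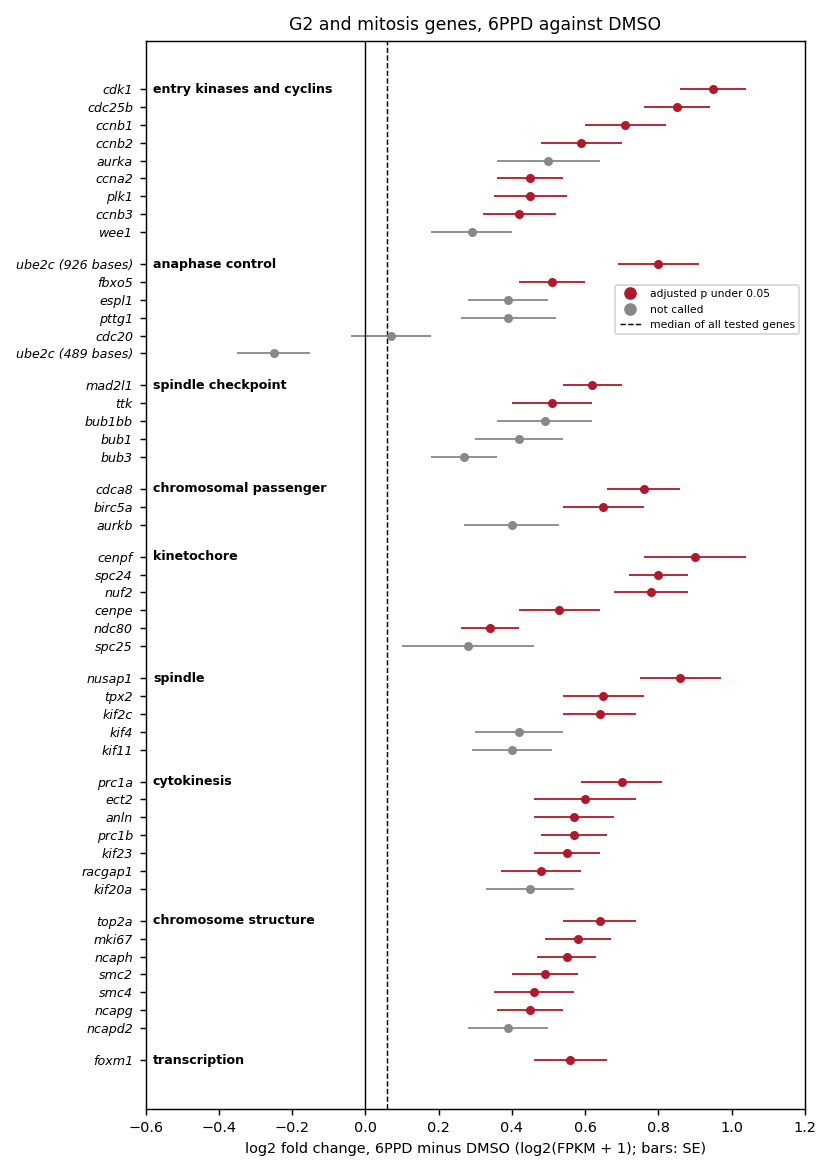
Log2 fold change (x axis, 6PPD minus DMSO on log2(FPKM + 1)) of the 49 rows of G2 and mitosis genes (y axis), grouped by role. Points are fits over 3 libraries a group, bars are SE, red marks an adjusted p under 0.05 and the dashed line the median of all tested genes (0.06). All but the shorter ube2c locus lie to the right of 0, and cdk1 lies farthest at 0.95.

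The libraries of each group differed among themselves as well. DMSO replicate 1 held the highest control value in 39 of the 49 rows, and its median member level was 0.14 above the DMSO mean on the log2 scale, against -0.10 and -0.06 in DMSO replicates 2 and 3. The 6PPD libraries stood at 0.49, 0.49 and 0.59 above the DMSO mean. The control closest to the 6PPD libraries in these genes was thus replicate 1. Over all tested genes it was DMSO replicate 3 that stood apart from the other controls, with a first principal component score of -4.7 against -20.6 and -22.8 in DMSO replicates 1 and 2 and 15.3 to 16.9 in the 6PPD libraries. Without DMSO replicate 1 the count of members called higher was 36, and without DMSO replicate 3 it was 30. Over all tested genes these fits called 286 and 807 higher. Summed over the 49 rows, the members made up 1305, 1101 and 1111 FPKM in DMSO replicates 1 to 3, and 1749, 1705 and 1778 FPKM in 6PPD replicates 1 to 3.

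**Figure D2:**
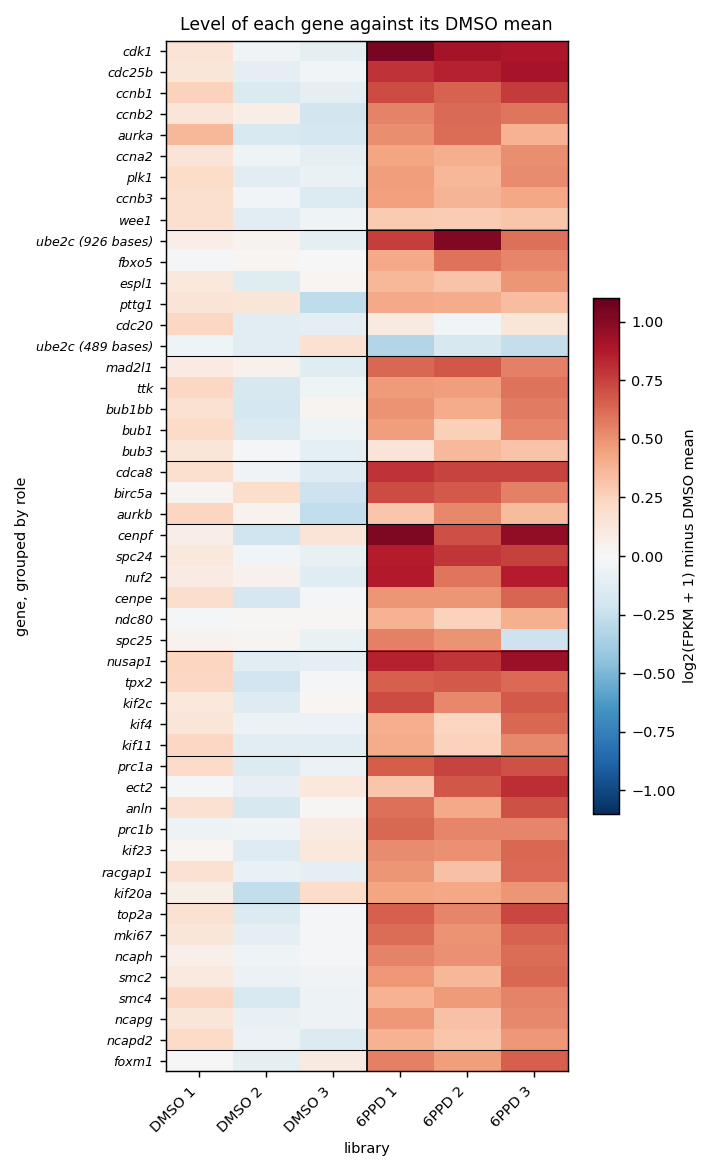
Level of each G2 and mitosis gene (rows, grouped by role) in each library (columns), as log2(FPKM + 1) minus the mean of the 3 DMSO libraries. The 6PPD columns are red for nearly all rows, with blue cells for the shorter ube2c locus in 6PPD replicates 1 to 3, for spc25 in 6PPD replicate 3 and, faintly, for cdc20 in 6PPD replicate 2, and DMSO replicate 1 is the reddest control.

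Among the kinases, cyclins and regulators of mitotic entry, 7 of 9 rose, against 2.26% of all tested genes. The gene cdk1 (ENSDARG00000087554, GRCz11 chromosome 17, 20923691 to 20929461), which encodes the kinase at the centre of mitotic entry, stood at 67.8, 59.4 and 56.6 FPKM in DMSO replicates 1 to 3 and at 127, 116 and 114 FPKM in 6PPD replicates 1 to 3. The groups lay far apart, and the lowest 6PPD library exceeded the highest control by more than the range within either group (log2 fold change 0.95 ± 0.09, SE, with an adjusted p of 0.00138 in limma). The phosphatase gene cdc25b (ENSDARG00000010792, chromosome 13, 14915344 to 14929236), whose product removes the inhibitory phosphates from Cdk1, rose from 12.7, 10.6 and 11.2 FPKM to 20.6, 21.4 and 22.4 FPKM, a log2 fold change of 0.85 ± 0.09 (SE, adjusted p = 0.00284 in limma). The wee1 gene, encoding the kinase that adds those phosphates, measured 9.15, 7.25 and 7.70 FPKM in DMSO against 10.0, 9.95 and 10.1 FPKM in 6PPD. Its 6PPD libraries were nearly equal and lay above the controls, but its log2 fold change of 0.29 ± 0.11 did not pass the threshold (adjusted p = 0.162 in limma). The ratio of cdc25b to wee1 FPKM was 1.38, 1.46 and 1.45 in DMSO and 2.05, 2.15 and 2.22 in 6PPD.

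Of the mitotic cyclin genes, that of cyclin B1 had the highest level in FPKM. This gene, ccnb1 (ENSDARG00000051923, chromosome 5, 54711027 to 54714789), was read at 57.2, 42.7 and 44.6 FPKM in DMSO against 79.0, 75.4 and 82.1 FPKM in 6PPD (adjusted p = 0.0108 in limma, log2 fold change 0.71 ± 0.11). DMSO replicate 1 was the highest control, and the groups did not overlap. The other mitotic cyclins rose by less on the log2 scale, ccnb2 by 0.59 from 6.04 ± 0.838 FPKM (SD, n = 3), ccna2 by 0.45 from 22.3 ± 2.13 FPKM and ccnb3 by 0.42 from 22.2 ± 2.69 FPKM. Relative to cdk1 the cyclin A2 transcript was lower in 6PPD: the ratio of ccna2 to cdk1 FPKM was 0.365, 0.362 and 0.366 in DMSO and 0.238, 0.257 and 0.281 in 6PPD. The ratio of ccnb1 to cdk1 was 0.844, 0.718 and 0.788 in DMSO and 0.620, 0.652 and 0.717 in 6PPD, so its groups were separated by the narrow step between 0.717 and 0.718. These ratios, and those given for other pairs, were picked after the members' values had been seen and are descriptions without a test. Because cdk1 had the largest log2 fold change of the members, a lower ratio to it says only that the other gene rose less. Of further pairs, the ratios of bub3 to bub1 and of aurka to tpx2 overlapped between groups, and that of ncapd2 to ncaph was lower in 6PPD. The polo kinase gene plk1, needed for centrosome maturation and many later steps, rose from 54.6 ± 6.94 to 74.4 ± 3.91 FPKM (adjusted p = 0.042 in limma). The spindle pole kinase gene aurka was read at 23.8 ± 5.66 FPKM in DMSO against 33.7 ± 2.68 FPKM in 6PPD and was not called (adjusted p = 0.0934 in limma), and 1 control, replicate 1, lay near the 6PPD libraries at 30.4 FPKM.

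**Figure D3:**
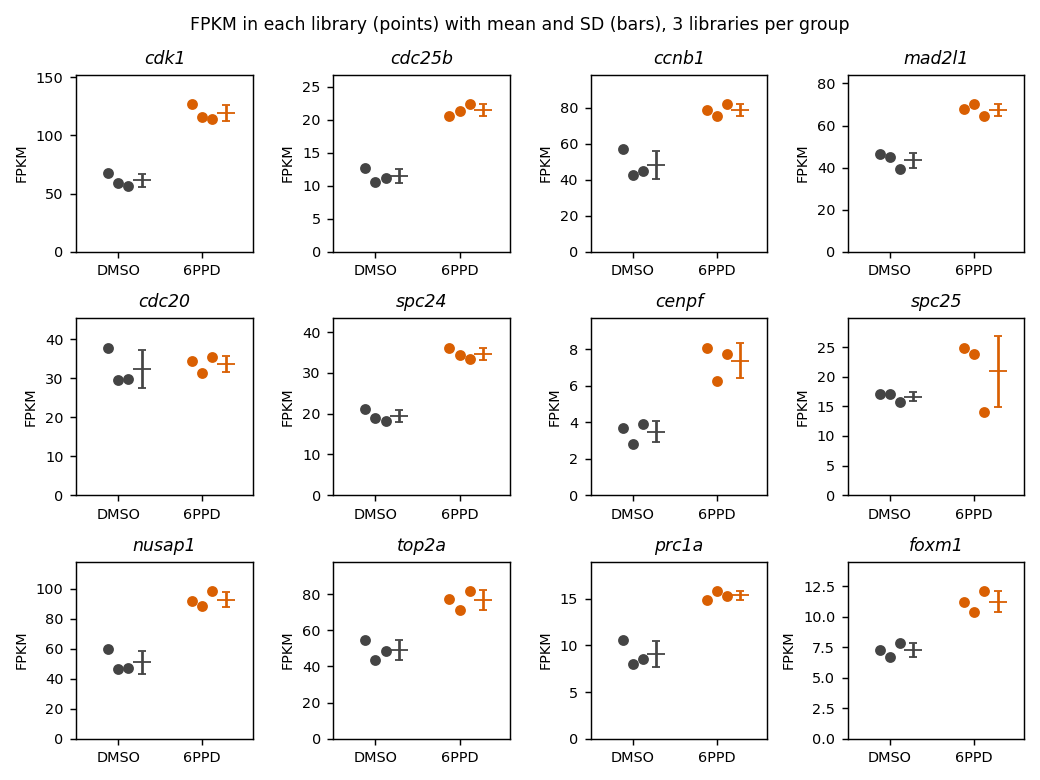
FPKM (y axis, from 0) of 12 G2 and mitosis genes in each DMSO and 6PPD library. Points are libraries, and the bar beside them is the mean with SD (n = 3). The groups are apart in 10 of the panels, and they overlap in cdc20 and in spc25, whose 6PPD replicate 3 lies at 14.0 FPKM.

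Of the genes that control the start of anaphase, 2 of 6 rows rose, against 2.26% of all tested genes. This group held both the member closest to 0 and the single negative value. The APC/C activator gene cdc20 (ENSDARG00000100741, chromosome 2, 19217586 to 19234469) measured 37.8, 29.4 and 29.7 FPKM in DMSO against 34.4, 31.4 and 35.3 FPKM in 6PPD, with the highest value of all in a control. Its log2 fold change was 0.07 ± 0.11 (adjusted p = 0.757 in limma). Its ratio to mad2l1, the checkpoint gene whose product binds and restrains Cdc20, was 0.818, 0.656 and 0.750 in DMSO and 0.507, 0.447 and 0.547 in 6PPD. The gene fbxo5, encoding the APC/C inhibitor Emi1, rose from 9.17, 9.43 and 9.26 FPKM to 12.7, 14.6 and 13.9 FPKM (adjusted p = 0.0182 in limma, log2 fold change 0.51 ± 0.09). Controls of fbxo5 were nearly identical and lay below all 6PPD libraries. The separase gene espl1, whose protease cuts cohesin, gave 6.67, 5.46 and 6.20 FPKM in DMSO against 8.13, 7.79 and 8.95 FPKM in 6PPD, a separation of the groups that was not called (adjusted p = 0.0919 in limma). Likewise the securin gene pttg1, whose product inhibits separase, had a log2 fold change of 0.39 ± 0.13 (adjusted p = 0.133 in limma).

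An E2 enzyme that starts ubiquitin chains on substrates of the APC/C is encoded by ube2c, a symbol carried by neighbouring rows on the minus strand of chromosome 6. The row with the longer gene model (926 bases, ENSDARG00000114670, 55287823 to 55297274) rose from 38.5, 37.4 and 33.7 FPKM to 62.6, 75.0 and 56.0 FPKM (adjusted p = 0.00682 in limma, log2 fold change 0.80 ± 0.11). The shorter one (489 bases, ENSDARG00000101618, 55299511 to 55309190) stood at 20.0, 19.0 and 23.3 FPKM in DMSO against 16.4, 18.2 and 17.1 FPKM in 6PPD. All of its 6PPD values were below its controls, yet its log2 fold change of -0.25 ± 0.10 was not called (adjusted p = 0.185 in limma). The loci are 2236 bases apart. Of the ube2c fragments, as FPKM times length, the shorter locus took 21.5%, 21.2% and 26.7% in DMSO and 12.1%, 11.4% and 13.9% in 6PPD. Taken as 1 gene by length-weighted FPKM, ube2c rose from 31.1 ± 0.99 to 48.2 ± 6.53 FPKM (adjusted p = 0.0143 in limma, log2 fold change 0.61 ± 0.10). The sources used here do not say how fragments that match both loci were divided, so the values of each row are uncertain. The shorter locus and the summed gene were singled out after their values had been seen.

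Of the spindle checkpoint genes, which hold anaphase until all kinetochores are attached, 2 of 5 rose, against 2.26% of all tested genes. All 5 were higher at an unadjusted limma p under 0.05, where 13.4% of all tested genes were. The Mad2 gene mad2l1 (ENSDARG00000004713, chromosome 7, 57629370 to 57637779) was read at 46.3, 44.9 and 39.5 FPKM in DMSO against 67.8, 70.2 and 64.4 FPKM in 6PPD (adjusted p = 0.00638 in limma, log2 fold change 0.62 ± 0.08). All 3 exposed libraries were well above the controls. The Mps1 kinase gene ttk rose from 22.4, 16.7 and 18.3 FPKM to 26.7, 26.5 and 29.3 FPKM (adjusted p = 0.0403 in limma). For bub1bb, encoding BubR1, values were 4.07, 2.95 and 3.62 FPKM in DMSO against 5.36, 5.01 and 5.71 FPKM in 6PPD, with groups that did not overlap and an adjusted p of 0.0737 in limma. The kinase gene bub1 had a log2 fold change of 0.42 ± 0.12 (adjusted p = 0.0853 in limma). Its partner gene bub3 had the smallest log2 fold change of the 5, with 61.0, 54.8 and 51.4 FPKM in DMSO against 61.5, 71.5 and 69.3 FPKM in 6PPD (adjusted p = 0.145 in limma, log2 fold change 0.27 ± 0.09). The lowest 6PPD value of bub3 and its highest control were 61.5 and 61.0 FPKM, so the groups were just apart.

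The chromosomal passenger complex brings Aurora B kinase to centromeres and later to the midzone of the spindle. Of its 3 matched genes 2 rose, against 2.26% of all tested genes. The Borealin gene cdca8 (ENSDARG00000043137, chromosome 19, 47771659 to 47782916) went from 16.6, 14.2 and 13.1 FPKM to 26.0, 25.1 and 25.0 FPKM (adjusted p = 0.00519 in limma, log2 fold change 0.76 ± 0.10), with 6PPD libraries that hardly differed from one another. The Survivin gene birc5a rose from 18.1, 20.4 and 14.9 FPKM to 29.7, 28.7 and 26.4 FPKM (adjusted p = 0.0184 in limma). The kinase gene itself, aurkb, measured 37.1, 32.1 and 25.7 FPKM in DMSO against 38.8, 45.7 and 40.1 FPKM in 6PPD and was not called (adjusted p = 0.125 in limma, log2 fold change 0.40 ± 0.13). Its controls were spread widely, and the highest came close to the lowest 6PPD value. The row that is incenp by its NCBI gene number, which encodes the scaffold of this complex, was read at 42.1, 33.1 and 38.2 FPKM in DMSO against 58.0, 50.7 and 62.2 FPKM in 6PPD (adjusted p = 0.0228 in limma).

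Kinetochore genes rose in 5 of 6 cases, against 2.26% of all tested genes. In the NDC80 complex, which grips spindle microtubules, spc24 (ENSDARG00000093622, chromosome 3, 19355869 to 19363981) rose from 21.1, 19.0 and 18.3 FPKM to 36.2, 34.3 and 33.4 FPKM (adjusted p = 0.00238 in limma, log2 fold change 0.80 ± 0.08). Its partner nuf2 rose from 21.3, 20.7 and 18.1 FPKM to 37.5, 30.5 and 37.3 FPKM (adjusted p = 0.00638 in limma, log2 fold change 0.78 ± 0.10). Both were separated from their controls by a wide gap, while ndc80 itself rose by 0.34 ± 0.08 on the log2 scale from 23.7 ± 0.344 to 30.3 ± 1.64 FPKM (adjusted p = 0.0468 in limma). The fourth subunit gene, spc25, measured 17.1, 17.0 and 15.7 FPKM in DMSO against 24.9, 23.8 and 14.0 FPKM in 6PPD. A pair of its 6PPD libraries was high and 6PPD replicate 3 lay below all controls, and the gene was not called (adjusted p = 0.421 in limma, log2 fold change 0.28 ± 0.18). The largest ratio of group means among the members, 2.12, was that of cenpf (ENSDARG00000055133, chromosome 17, 32720413 to 32743249), a large kinetochore protein that also binds the nuclear envelope. It stood at 3.70, 2.83 and 3.92 FPKM in DMSO against 8.10, 6.29 and 7.76 FPKM in 6PPD (adjusted p = 0.0102 in limma, log2 fold change 0.90 ± 0.14). The kinetochore motor gene cenpe rose from 15.1 ± 2.10 to 22.3 ± 1.48 FPKM (adjusted p = 0.0304 in limma).

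Among the spindle motors and microtubule-binding proteins, 3 of 5 genes rose, against 2.26% of all tested genes. The gene nusap1 (ENSDARG00000002403, chromosome 13, 33251721 to 33256667), whose product bundles microtubules near chromosomes, rose from 59.7, 46.2 and 46.8 FPKM to 91.6, 88.1 and 98.3 FPKM (adjusted p = 0.00453 in limma, log2 fold change 0.86 ± 0.11). It overlaps the gene ndufaf1 on the opposite strand (mean 21.1 FPKM). Next came kif2c, encoding a kinesin that takes apart microtubule ends, at 11.9, 9.81 and 11.1 FPKM in DMSO against 18.6, 16.2 and 18.0 FPKM in 6PPD (adjusted p = 0.0116 in limma). The Aurora A activator gene tpx2 had the highest control level of all members and rose from 73.9, 54.2 and 62.4 FPKM to 100.1, 101 and 97.6 FPKM (adjusted p = 0.0143 in limma). The exposed libraries of tpx2 agreed closely, and the controls were spread over a wider range. The motor genes of spindle bipolarity and chromosome arms did not pass: kif11 (Eg5) measured 55.0, 43.1 and 42.9 FPKM in DMSO against 62.4, 55.8 and 67.9 FPKM in 6PPD (adjusted p = 0.0948 in limma), and kif4 had a log2 fold change of 0.42 ± 0.12 (adjusted p = 0.084 in limma).

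Genes of the central spindle and cytokinesis rose in 6 of 7 cases, against 2.26% of all tested genes. Of these called genes, 0 kept the call in each of the 6 fits without 1 library. The duplicated zebrafish genes for the midzone bundler PRC1 both rose: prc1a (chromosome 25, 7435291 to 7461466) from 10.6, 8.05 and 8.57 FPKM to 14.9, 15.8 and 15.3 FPKM, and prc1b (chromosome 7, 50353297 to 50367642) from 8.49, 8.60 and 9.48 FPKM to 14.3, 13.3 and 13.3 FPKM (adjusted p = 0.0112 and 0.0122 in limma). The copies were thus read at like levels, and the ratio of prc1a to prc1b overlapped between groups (1.03 ± 0.193 in DMSO and 1.13 ± 0.0756 in 6PPD, SD, n = 3). The kinesin and the GTPase-activating subunit of centralspindlin are encoded by kif23 and racgap1. The first rose from 19.9, 17.6 and 21.3 FPKM to 28.5, 28.1 and 30.9 FPKM (adjusted p = 0.0143 in limma), and the second from 12.8 ± 1.42 to 18.2 ± 1.97 FPKM (adjusted p = 0.0491 in limma). The RhoA exchange factor gene ect2 (log2 fold change 0.60 ± 0.14) and the anillin gene anln (0.57 ± 0.11), which organize the contractile ring, also rose. The motor gene kif20a, whose product carries passenger proteins to the midzone, stood at 13.8, 10.7 and 15.3 FPKM in DMSO against 18.1, 18.0 and 18.8 FPKM in 6PPD. It showed uneven controls and even 6PPD values and was not called (adjusted p = 0.0808 in limma).

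Genes for the structure of mitotic chromosomes rose in 6 of 7 cases, against 2.26% of all tested genes. Topoisomerase II alpha, which untangles sister chromatids, is encoded by top2a, read at 54.6, 43.6 and 48.3 FPKM in DMSO against 77.5, 71.0 and 81.6 FPKM in 6PPD (adjusted p = 0.00951 in limma, log2 fold change 0.64 ± 0.10). The gene of the proliferation marker Ki-67, mki67, rose from 45.6, 38.4 and 40.8 FPKM to 63.9, 58.7 and 65.7 FPKM (adjusted p = 0.00947 in limma, log2 fold change 0.58 ± 0.09). In both genes all exposed libraries exceeded all controls by a clear margin. The condensin I gene ncaph rose from 19.0, 17.6 and 18.1 FPKM to 27.0, 26.3 and 28.4 FPKM (adjusted p = 0.00776 in limma, log2 fold change 0.55 ± 0.08). Its partners smc2 (log2 fold change 0.49 ± 0.09), smc4 (0.46 ± 0.11) and ncapg (0.45 ± 0.09) rose as well. The remaining subunit gene ncapd2 measured 27.9, 22.8 and 21.5 FPKM in DMSO against 31.4, 29.8 and 33.7 FPKM in 6PPD, with groups apart and an adjusted p of 0.0827 in limma. On chromosome 12 of GRCz11, mki67 (10366617 to 10381282) and ndc80 (10353333 to 10365969) are neighbours on the minus strand with 647 bases between them, and top2a (10706772 to 10740236) lies 325 kb away on the plus strand. The 49 rows are spread over 21 chromosomes, and chromosome 12 holds the most, with 5.

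The transcription factor FoxM1 is known to activate many G2 and mitosis genes in vertebrate cells. Its gene foxm1 (ENSDARG00000003200, chromosome 4, 5807964 to 5831522) rose from 7.28, 6.74 and 7.87 FPKM to 11.2, 10.4 and 12.1 FPKM (adjusted p = 0.0216 in limma, log2 fold change 0.56 ± 0.10). The groups did not overlap, and the rise was close to the median of the members. Across the 49 rows, the log2 fold change was nearly unrelated to gene length (Pearson r = 0.10, Spearman rho = -0.08 over log2 length, as a description across genes that share the same 6 libraries).

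Further genes of G2 and mitosis were taken from a list of 126 symbols outside the members. Of 107 that were tested, 33 rose and 0 fell by limma (30.8% called higher), and the median log2 fold change was 0.38. Of all tested genes, 2.26% were called higher and 1.15% lower. The smallest p-values belonged to kpna2, an importin of nuclear entry (from 93.1 ± 19.3 to 176 ± 10.5 FPKM), gtse1, a microtubule-binding protein of G2 (from 7.93 ± 1.63 to 15.5 ± 1.14 FPKM), trip13, which helps to turn off the spindle checkpoint (log2 fold change 0.72 ± 0.11), and the kinase gene melk (0.70 ± 0.11), with limma adjusted p = 0.00753, 0.00915, 0.0116 and 0.0117. Of all 33 called genes, kpna2 and gtse1 were the 2 that kept the call in each of the 6 fits without 1 library. The count called higher was 4 in the fit that left out 6PPD replicate 1, 7 in that leaving out 6PPD replicate 2, 6 for 6PPD replicate 3 and 7 for DMSO replicate 2. Members of this list with a negative log2 fold change numbered 13. None of these was called with all 6 libraries and no further scaling. The lowest values were those of the polo-like kinase gene plk2b (-0.41, limma adjusted p = 0.0869) and of the APC/C gene anapc10 (-0.36, limma adjusted p = 0.124). After median-ratio scaling, 23 genes of the list were called higher and 1 lower. Without DMSO replicate 1, 32 were called higher and 1 lower, and without DMSO replicate 3, 34 were called higher and 0 lower.

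Larger complexes of chromosome segregation were counted subunit by subunit. These counts overlap with those above. The condensin I and NDC80 genes are members, and the called inner kinetochore and augmin genes are among the called genes of the further list. None of 13 APC/C subunit genes was called by limma, where 2.26% of all tested genes were called higher and 1.15% lower. Their median log2 fold change was 0.01. At an unadjusted p under 0.05, where 13.4% of all tested genes were higher, 1 was higher (cdc23) and 1 lower (anapc10). The share of all tested genes lower at that threshold was not counted. The value of cdc23 is uncertain, because it overlaps kif20a on the opposite strand and whether counting used strand is not given. None of 7 cohesin genes was called either, and 1 was called higher when DMSO replicate 3 was left out. Their median was -0.02, and 1, rad21b, was higher at an unadjusted p under 0.05 (log2 fold change 0.41 ± 0.10). The abundant cohesin genes smc3, smc1al and rad21a measured 75.5 ± 3.99, 63.6 ± 3.11 and 226 ± 18.5 FPKM in DMSO and 71.0 ± 6.51, 62.6 ± 5.85 and 219 ± 12.6 FPKM in 6PPD. In the inner kinetochore, 6 of 10 genes rose, with a median of 0.57 and the highest value in cenpx (0.81 ± 0.14). Of 6 genes of augmin, which seeds branching spindle microtubules, 3 rose (haus1, haus3 and haus6), and haus7 stood at 0.01 ± 0.11. None of these 6 inner kinetochore and 3 augmin genes kept its call in every fit without 1 library: with 6PPD replicate 1 left out none was called, and with 6PPD replicate 2, 6PPD replicate 3 or DMSO replicate 2 left out 0 to 2 inner kinetochore genes and 0 to 1 augmin genes were. With DMSO replicate 1 or DMSO replicate 3 left out, 5 inner kinetochore genes and 2 to 3 augmin genes were called higher. Condensin II, which acts from prophase, shares smc2 and smc4 with condensin I, and these were counted under condensin I only. Of its other 3 genes 0 were called by limma. All 3 were higher at an unadjusted p under 0.05, with log2 fold changes of 0.33 to 0.40. These complexes were drawn up after the members' values had been seen, and the differences between complexes were not tested.

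**Figure D4:**
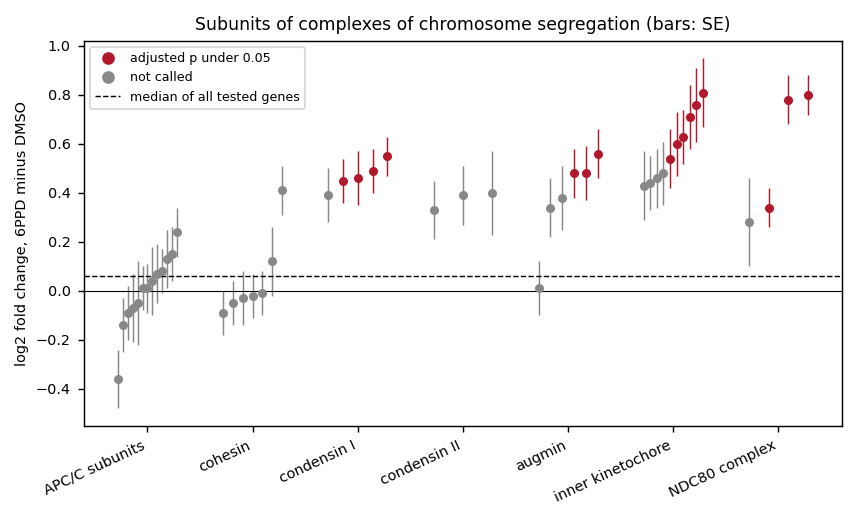
Log2 fold change (y axis, 6PPD minus DMSO on log2(FPKM + 1)) of subunit genes of 7 complexes (x axis). Points are genes, bars are SE, red marks an adjusted p under 0.05 and the dashed line is the median of all tested genes. APC/C and cohesin subunits lie around 0 with medians of 0.01 and -0.02, and inner kinetochore genes lie between 0.43 and 0.81.

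DNA replication precedes G2, and its genes were counted in the same way. Of 61 tested rows, 15 (24.6%) rose and 0 fell by limma, with a median log2 fold change of 0.36. Of all tested genes, 2.26% were called higher and 1.15% lower. The nucleotide synthesis genes tk1 (1.06 ± 0.11), rrm2 (0.97 ± 0.12) and tyms (0.72 ± 0.11) and the G1/S cyclin gene ccne2 (0.78 ± 0.08) had the smallest p-values (adjusted p = 0.00158, 0.00376, 0.0094 and 0.00242 in limma), and these 4 alone kept their call in each of the 6 fits without 1 library. The count called higher was 4 with 6PPD replicate 1, 6PPD replicate 3 or DMSO replicate 2 left out, 7 with 6PPD replicate 2 left out and 8 after median-ratio scaling. It was 21 with DMSO replicate 1 left out and 14 with DMSO replicate 3 left out. Over all tested genes, 346 were called higher with all 6 libraries and 86 to 807 with 1 left out. Whether replication and mitosis genes differed in size of change was not tested. Among 27 tested genes of cell cycle arrest and checkpoints, 3 (11.1%) rose and 2 fell, against 2.26% and 1.15% of all tested genes. After median-ratio scaling 2 of the 27 were called higher and 3 lower. The replication checkpoint kinase gene chek1 rose from 4.16 ± 0.124 to 8.31 ± 0.615 FPKM (adjusted p = 0.00435 in limma) and sesn1 rose by 0.44 ± 0.08 on the log2 scale. The stress gene sesn2 (-0.79 ± 0.13) and the antiproliferative gene btg2 (-0.36 ± 0.08) fell. In each of the 6 fits without 1 library chek1 kept its call, and sesn1, sesn2 and btg2 lost it in at least 1.

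**Figure D5:**
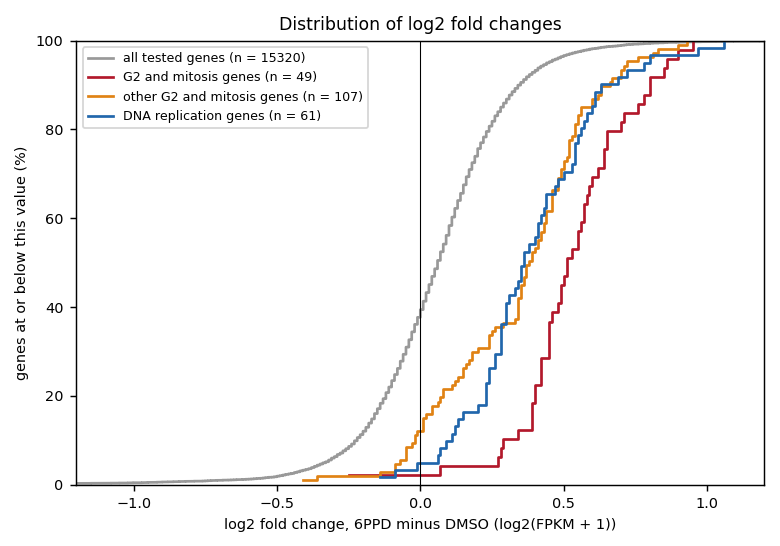
Cumulative share of genes (y axis, %) by log2 fold change (x axis, 6PPD minus DMSO) for all tested genes, the 49 rows of G2 and mitosis genes, 107 other G2 and mitosis genes and 61 rows of DNA replication genes. The curves of all 3 cell cycle lists lie to the right of that of all tested genes, with medians of 0.51, 0.38 and 0.36 against 0.06.

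Markers of the cell types in the head were called in 3 of 11 lists, those of neurons, photoreceptors and immune cells. Of all tested genes, 2.26% were called higher and 1.15% lower. Of 5 neuronal markers, elavl3 (0.64 ± 0.13) and snap25a (0.40 ± 0.08) rose, and 2 had a negative log2 fold change. One of these, elavl4, stood at -0.34 ± 0.20 (adjusted p = 0.37 in limma) and was called lower without DMSO replicate 3 (-0.63, adjusted p = 0.0154 in limma). The summed level of the neuronal markers was 296 to 323 FPKM in DMSO and 329 to 352 FPKM in 6PPD. No row of 5 neural progenitor and radial glia markers (6 rows) was called by limma, and their sum, of which fabp7a was the largest part, was 1317 to 1516 FPKM in DMSO and 1090.4 to 1178 FPKM in 6PPD. Within that list 3 rows had a positive and 3 a negative log2 fold change. The 4 smallest p-values were those of gfap (-0.50 ± 0.12), sox19a (-0.26 ± 0.07), her4.2 (0.35 ± 0.11) and fabp7a (-0.33 ± 0.11). Their adjusted p-values were 0.0574, 0.0929, 0.121 and 0.145 in limma. Of 4 photoreceptor markers 2 fell, rho (log2 fold change -1.01) and opn1sw1 (-1.98). The sums of this list, of which crx was the largest part and was not called, were 225 to 318 and 181 to 208 FPKM. Controls of opn1sw1 were uneven, at 3.20, 5.45 and 14.0 FPKM in DMSO replicates 1 to 3. Its log2 fold change was -1.47 without DMSO replicate 3. All 5 epidermal markers had a negative log2 fold change, none was called, and their sums were 3049.5 to 5294 FPKM in DMSO, the highest in DMSO replicate 1, and 2539 to 2932 FPKM in 6PPD. The gene lyz fell (-0.82) among 4 immune markers (sums of 17.9 to 30.4 and 15.2 to 19.4 FPKM), and none of the 4 markers each of endothelium, blood, muscle, cartilage and neural crest, nor of the 3 of lens, was called by limma. Of these 5 marker calls, that of rho alone was kept in each of the 6 fits without 1 library; those of elavl3 and opn1sw1 were lost in 4 of them and those of snap25a and lyz in 5. After median-ratio scaling the calls of snap25a and lyz were lost (adjusted p = 0.0738 and 0.0505 in limma). Under the same scaling the progenitor marker gfap and the muscle marker myhz2 were called lower (adjusted p = 0.0453 and 0.0245 in limma). Without DMSO replicate 3, 2 rows of the progenitor list and 1 marker each of epidermis and neural crest were also called lower and 1 of lens higher, and without 6PPD replicate 1 a muscle marker was called lower. No marker of these lists was at 0 in any library. The part of these differences in the levels of the G2 and mitosis genes was not tested.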

How the data were processed

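The deposited table gives FPKM per gene and library, which the authors made from reads that were strand-specific by the dUTP method, per the labels' protocols. Per the submitters' processing notes the tools were HISAT2, featureCounts, StringTie and fastp, on build GRCz11, with no versions or roles. The sources used here do not say whether counting used strand. Members with an expressed overlapping gene on the opposite strand (nusap1, ncapg, kif20a and racgap1) are therefore uncertain. Strand would not separate smc2 from its overlapping gene, which lies on the same strand, so smc2 is uncertain too. Similar copies (ube2c, prc1a and prc1b) are uncertain because the division of fragments that match both copies is not given. Fragment counts and depth are unknown: at the best step size, 26.6% to 28.8% of low values were whole multiples within 0.1 step, where any step gives 20%. The libraries' FPKM summed to 434258 to 472121.

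The 15320 genes whose mean reached 1 FPKM were fitted with limma 3.58.1 on log2(FPKM + 1) (R 4.3.3, intensity trend, prior degrees of freedom 5.56, residual 4), 6PPD against DMSO, with groups from the sample titles and no further term. Calls needed a Benjamini-Hochberg adjusted p under 0.05. The procedure was also run on simulated data with independent noise for each gene, which cannot show how deviations shared within a library affect the calls. In each role group the 3 members with the smallest p and the 1 with the largest are given by library, and of other lists up to 4 genes with the smallest p. Where 5 or fewer were called, all are named. Members and lists were chosen with earlier results of these data known, and lists were given no test of their own. Alternatives were other pseudocounts, filters, scalings and prior variances, a replicate block and leaving out each library. One called gene of the list of cell cycle arrest and checkpoints is counted but not reported here by name.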

Additional observations from a re-analysis of the deposited data

How the results depend on the processing

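The count of 34 members called higher was 12 to 36 when 1 library was left out (with 5 libraries in the fit), 21 after median-ratio scaling, 22 without the intensity trend and 3 with no filter on low values (26983 genes tested). The median log2 fold change of the members was 0.51 in the main fit and 0.45 after median-ratio scaling. It was 0.44 with a gene length trend removed and 0.59 as TPM. In the same order, the medians of all tested genes were 0.06, 0.01, 0.00 and 0.12. With 1 library left out, the median was 0.46 to 0.57 for the members and 0.03 to 0.10 for all tested genes. No member was called lower under any setting run, and no member's log2 fold change changed sign. Over all genes, 346 were called higher and 176 lower. With 1 library left out, 86 to 807 were higher and 72 to 327 lower. With no filter 13 were higher and 13 lower, and without the intensity trend 214 were higher. After median-ratio scaling 234 were higher and 229 lower. Of the calls over all genes 66.3% were higher, and 50.5% after median-ratio scaling. Same-numbered libraries did not all deviate together (r = 0.03, 0.18 and -0.03 for numbers 1 to 3). With 3 libraries a group these correlations cannot decide whether the numbers pair the libraries. With the replicate block 30 members were called higher. Added after the data were seen, the count was 35 with the incenp row and 34 with the ube2c loci summed. The depth is unknown, so no limit of detection could be set. The causes of these differences were not tested.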
